A study of Mus musculus with 12 samples.

Results

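The 42 genes described here are a listed set of S phase genes, that is, genes of DNA replication whose transcripts are usually most abundant while a cell copies its genome. They were found by symbol in the deposited tables from a given list of names, which was drawn up with earlier results of these data known. They are 42 of 22307 gene symbols that occurred over 12 tables, and each was found in all tables except Exo1, which bone marrow plate 3 lacked. The tables hold RNA counts of sorted single haematopoietic stem cells (HSC, named so by the labels), the cells that renew the blood, from a mouse line built to record cell lineage by inherited barcodes. The sources were the AGM (the aorta-gonad-mesonephros region of the embryo, where the first HSC arise), the fetal liver, where HSC expand, and the bone marrow, where they reside in the adult. There were 2 AGM, 5 fetal liver and 5 bone marrow plates of 96 wells. Cells were sorted singly into a methyltransferase reaction, the nuclei were removed on beads, and the cytoplasmic polyadenylated RNA was read with a modified form of the plate method scSTRT-seq. No treatment separates the groups. No animal ages or sort markers are in the labels, and the tissue of bone marrow plates 4 and 5 comes from their titles alone.

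Before a cell replicates its DNA, the MCM helicase is loaded onto origins, a step called licensing, and is then switched on with Cdc45 and the GINS proteins. Polymerases, the sliding clamp and its loader copy the strands from deoxynucleotides that thymidylate synthase and ribonucleotide reductase supply, and chaperones pack the new DNA with histones. Many of these genes are switched on together by E2F transcription factors as a cell leaves G1. Adult bone marrow HSC are known as mostly quiescent cells, and fetal HSC as cycling ones.

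After filtering, 1020 of 1152 wells were kept as cells: 143 of AGM, 454 of fetal liver and 423 of bone marrow. They held 83152493 unique molecular identifiers (UMIs), of which 340052, or 0.409%, belonged to the 42 genes. The median cell had 159228 UMIs on AGM plates, 54303 on fetal liver plates and 59558 on bone marrow plates. The 9 HSC markers examined, among them Kit, Procr and Hlf, were all detected in each tissue. Their summed levels per plate were 1094 to 1109 CPM (counts per 1000000 UMIs) in AGM. In fetal liver they were 1202 to 1412 CPM and in bone marrow 1467 to 1688 CPM. Single HSC markers differed more, with log2 fold changes from -0.45 to 5.22 in fetal liver against AGM. The 10 endothelial markers examined summed to 1168 to 1539 CPM per plate in AGM, 303 to 437 CPM in fetal liver and 142 to 313 CPM in bone marrow, where Cdh5 and Plvap were at 0. Endothelial transcripts were thus most abundant on the AGM plates, and their part in the comparisons with AGM was not tested. The 8 erythroid markers summed to 1846 to 2264 CPM on fetal liver plates 1 to 3, nearly all of it Hbb-bt (beta globin, 1818 to 2228 CPM), against 34.7 and 120.5 CPM on fetal liver plates 4 and 5, 165 to 355 CPM in bone marrow and 100.2 and 120 CPM in AGM. The fetal liver libraries therefore differed in globin RNA, and its part in the comparisons with fetal liver was not tested. Plates with the same origin code in their titles were summed, which gave 1 AGM, 2 fetal liver (plates 1 to 3, plates 4 and 5) and 2 bone marrow libraries (plates 1 to 3, plates 4 and 5) for the tests.

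The S phase genes as a group took the largest share of UMIs in AGM and the smallest in bone marrow. Their summed level was 5092 ± 109 per 1000000 UMIs in AGM (SD, n = 2 plates), 4101 ± 586 in fetal liver (SD, n = 5 plates) and 3208 ± 365 in bone marrow (SD, n = 5 plates). Bone marrow plates lay between 2609 and 3507 per 1000000 UMIs and fetal liver plates between 3733 and 5129, so the plates of these tissues did not overlap. Fetal liver plate 3, at 5129, lay within the range of the AGM plates, at 5015 and 5169, while the other fetal liver plates reached at most 3983. These sums over cells cannot tell fewer cells in S phase from less S phase RNA in each cell.

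Single cells spread over a wide range in every tissue. The median cell had 4143 member UMIs per 1000000 in AGM (quartiles 2630 and 6536), 2518 in fetal liver (1579 and 4273) and 1644 in bone marrow (863 and 3251). The highest bone marrow cell, at 13544 per 1000000 UMIs, exceeded the highest AGM cell, at 10972, while the lowest bone marrow cell stood at 12.2 per 1000000 UMIs and the lowest AGM cell at 415. In bone marrow more of the level lay in the highest cells, without thinning to equal depth and without a background from other genes. The 10% of cells with the highest level on a plate held 33.2% ± 2.81 of the summed per-cell shares in bone marrow (SD, n = 5 plates), 26.4% ± 2.68 in fetal liver (n = 5) and 21.3% ± 0.0512 in AGM (n = 2). Bone marrow plates ran from 30.3% to 37.3% and fetal liver plates from 22.8% to 29.4%, without overlap.

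**Figure D1:**
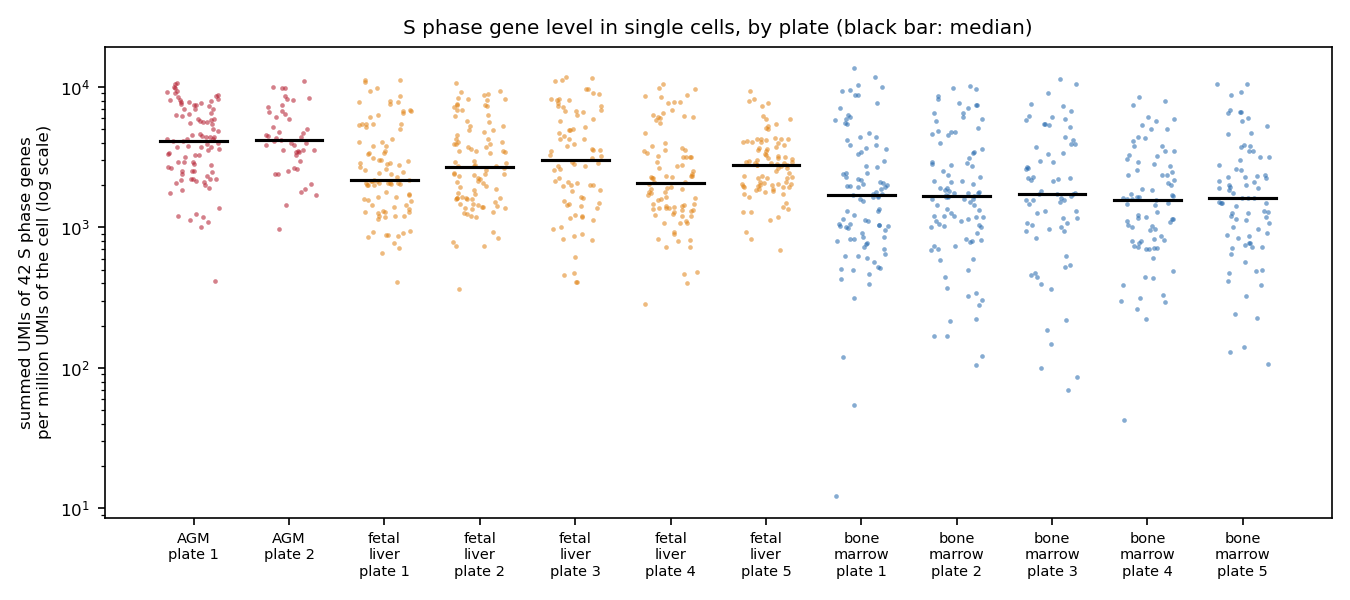
Summed UMIs of the 42 S phase genes per 1000000 UMIs of the cell, on a log scale, for each kept cell (point) by plate, with the plate median as a black bar. AGM cells extend from 415 to 10972 (quartiles 2630 and 6536) around a median of 4143. Bone marrow cells extend from 12.2 to 13544 (quartiles 863 and 3251) around a median of 1644.

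To compare detection at equal depth, the expected number of the 42 genes with at least 1 UMI was computed for each cell at 20000 UMIs, which left out 68 shallower cells (2 AGM, 35 fetal liver and 31 bone marrow). A cell then showed 21.5 ± 0.671 of the genes in AGM (SD, n = 2 plates), 17.9 ± 2.66 in fetal liver (n = 5) and 9.12 ± 1.12 in bone marrow (n = 5). Without thinning the numbers were 31.1, 22.6 and 12.9. Bone marrow plates ran from 7.35 to 10.2 genes and fetal liver plates from 15.1 to 22.3, without overlap. All genes moved the same way, with 3418, 3069 and 1993 genes detected per cell at 20000 UMIs in AGM, fetal liver and bone marrow. Per 1000 detected genes, S phase genes numbered 6.29 ± 0.145 (AGM, SD, n = 2 plates), 5.84 ± 0.612 (fetal liver, n = 5) and 4.57 ± 0.257 (bone marrow, n = 5), and the bone marrow plates, at 4.21 to 4.93, still lay below the fetal liver plates, at 5.04 to 6.55.

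Gene by gene, the share of cells with a UMI at 20000 UMIs was lower in bone marrow than in fetal liver for all 42 genes, and lower in bone marrow than in AGM for all 42. It was lower in fetal liver than in AGM for 30 genes and higher for 12. Most genes showed this too: of 15472 tested genes 81.0% had a lower share in bone marrow than in fetal liver, 76.1% a lower share in bone marrow than in AGM, and 57.4% a lower share in fetal liver than in AGM. The median ratio of the shares in bone marrow and fetal liver was 0.431 for the S phase genes and 0.581 for all tested genes. The median over the 42 S phase genes was 18.5% of bone marrow cells, 37.0% of fetal liver cells and 51.4% of AGM cells. Over all tested genes it was 5.09%, 8.72% and 10%, so the 2 median ratios compare genes of unlike detection. The ratio of the share in bone marrow to that in fetal liver ran from 0.274 for Exo1 to 0.979 for Chaf1b. Fetal liver plate 5 stood above the other fetal liver plates for many genes, and it had the fewest UMIs per detected gene, a median of 2 against 4 to 7 on the other fetal liver plates and 3 to 18 on bone marrow plates. These medians were taken without thinning, and plate 5 was also the shallowest fetal liver plate, with a median of 35267 UMIs per cell. Whether equal UMIs stood for equal numbers of molecules was not tested. No cell type that should lack these genes was profiled, so the share that free RNA gives is unknown.

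**Figure D2:**
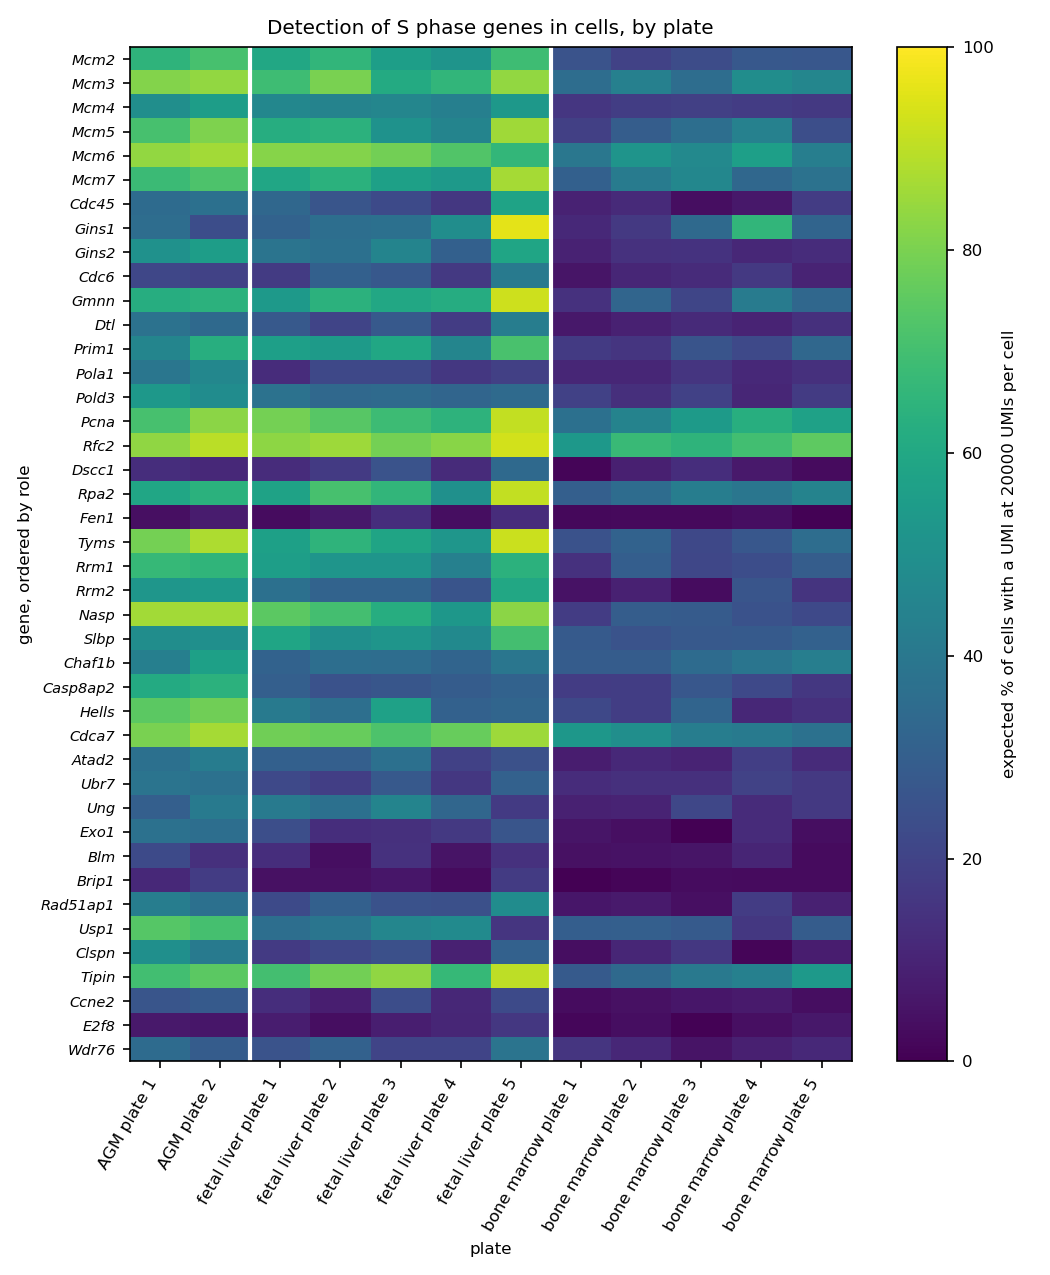
Expected percentage of cells with at least 1 UMI of each S phase gene (row, ordered by role) at 20000 UMIs per cell, by plate (column), from 0 (dark) to 100 (yellow). The 5 bone marrow plates are darker than the fetal liver plates for most genes. The genes found most often in bone marrow cells are Rfc2 (65.4%), Pcna (49.9%), Mcm6 (47.2%) and Cdca7 (45.3%).

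The summed libraries were compared gene by gene, with every p-value adjusted over 15472 tested genes. All 42 S phase genes passed the filter on low counts. In bone marrow against fetal liver, 4 genes fell (Exo1, Gmnn, Nasp and Tyms) and none rose, and the other 38 did not pass. Of all tested genes, 2.06% were called lower and 2.68% higher in that comparison. In bone marrow against AGM, 6 genes fell (Clspn, Exo1, Nasp, Rrm1, Rrm2 and Tyms), none rose and 36 did not pass, where 3.63% of all genes were called lower and 5.29% higher. In fetal liver against AGM none of the 42 passed in edgeR in either direction, where 1.91% of all genes were called lower and 2.92% higher. There 11 of the 42 had an unadjusted p under 0.05, 5 of them higher and 6 lower, beside 8.73% of all genes higher and 6.70% lower (15.4% in all). That count was 16 (2 higher, 14 lower) in bone marrow against fetal liver, beside 8.41% higher and 8.16% lower of all genes (16.6% in all). It was 12, all lower, in bone marrow against AGM, beside 11.4% higher and 9.26% lower (20.6% in all). In fetal liver against AGM DESeq2 called 0 of the 42. There limma, on plates, called 8 (1 higher and 7 lower), beside 7.29% of all genes higher and 8.5% lower in that fit (15.8% in all). In bone marrow limma called 14 against fetal liver (1 higher, 13 lower), beside 6.36% higher and 9.11% lower (15.5% in all), and 14 against AGM, all lower, beside 10.8% higher and 15.5% lower (26.3% in all). The limma fit took plates of 1 origin code as separate libraries, and the correlation it estimated within a code was -0.098. Nothing says that such plates are separate animals. The 3 comparisons share libraries, so they do not repeat each other independently.

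The median log2 fold change of the 42 genes was -0.36 in bone marrow against fetal liver, beside 0 for all tested genes, with 31 of the 42 negative. It was -0.41 in bone marrow against AGM, beside 0.04 for all genes, again with 31 negative. It was -0.11 in fetal liver against AGM, beside 0.05 for all genes, with 24 negative. That last median rested on the fetal liver libraries, at 0.01 without fetal liver plate 4, -0.02 without plates 4 and 5 and -0.25 without plates 1 to 3. In bone marrow against fetal liver the median was -0.60 without fetal liver plate 4 and -0.51 without plates 4 and 5. With cells scaled down to 20000 UMIs it was -0.67 there and -0.74 in bone marrow against AGM. Leaving out fetal liver plate 4 alone left 0 of the 42 genes called in any of the 3 comparisons, with 117, 329 and 181 of all genes still called in bone marrow against fetal liver, bone marrow against AGM and fetal liver against AGM. Fetal liver plates enter bone marrow against AGM only through the fit that all libraries share. The median of that comparison was -0.44 without fetal liver plate 4 and -0.42 without plates 4 and 5. Without plate 4 its library was plate 5 alone, the shallowest fetal liver plate, with 3384993 UMIs. Whether the lost calls came from plate 4 itself or from the library that remained was not tested. With 1 AGM library, no spread could be measured in AGM, and it was assumed to be that of the other libraries.

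The calls also depended on what was counted. When cells with at least 1 UMI of a gene were counted in place of UMIs, 9 of the 10 calls of S phase genes were lost, and that of Exo1 against AGM was kept. In that setting Rfc2 (0.49, adjusted p = 0.0156) and Chaf1b (0.65, adjusted p = 0.0432) were called higher in bone marrow against fetal liver, and Rfc2 (0.86, adjusted p = 0.000506), Pcna (0.60, adjusted p = 0.029) and Gins1 (0.80, adjusted p = 0.0383) higher in bone marrow against AGM, all by edgeR. Rad51ap1 was called lower in both comparisons there. The cell counts were scaled to library totals as UMIs were, so these values are relative to the detection of other genes. For the 4 genes called higher, the share of cells with a UMI, without thinning, was lower in bone marrow. It was 79.2% against 90.7% in fetal liver and 97.2% in AGM for Rfc2, and 48.9% against 50% in fetal liver for Chaf1b. In AGM it was 93.7% for Pcna and 67.1% for Gins1, against 63.1% and 51.3% in bone marrow.

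**Figure D3:**
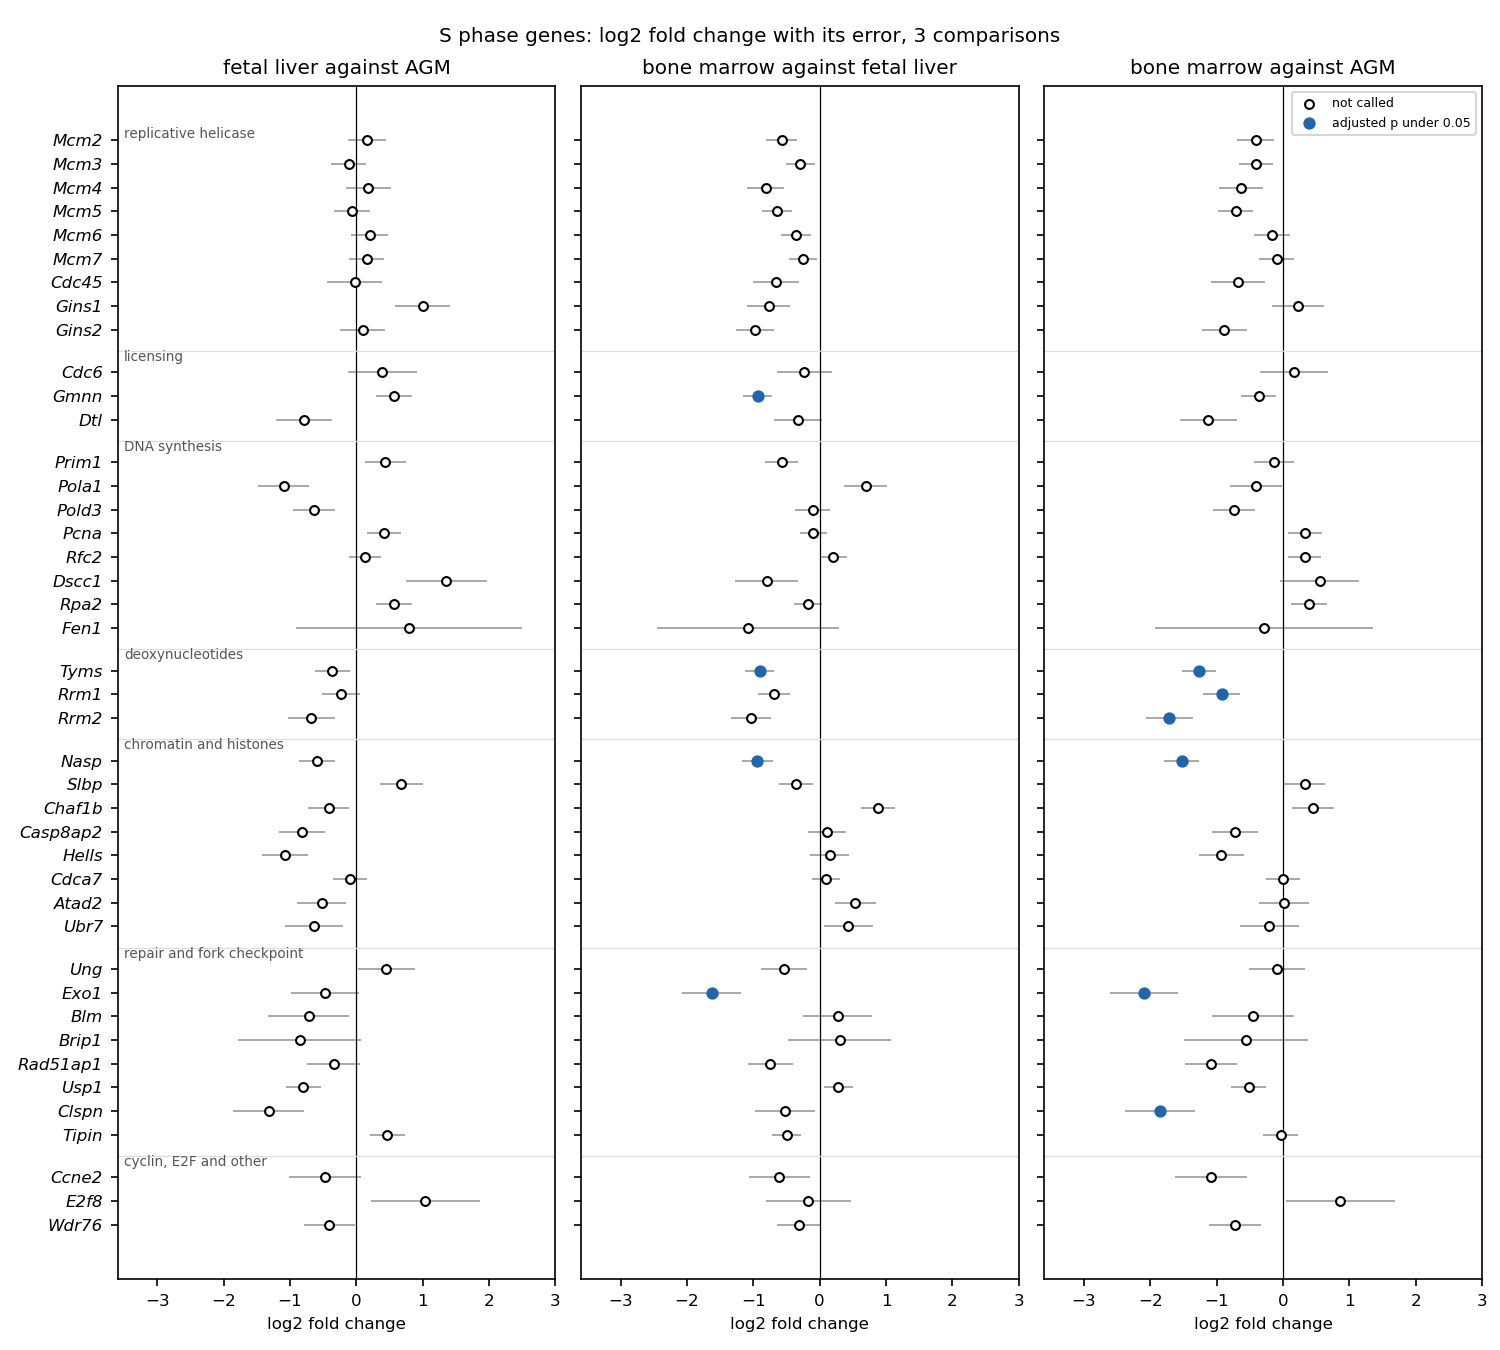
Log2 fold change of each of the 42 S phase genes in 3 comparisons, with its error as a bar (fold change over the root of the F statistic); filled points have an adjusted p under 0.05. The filled points, 4 in bone marrow against fetal liver and 6 in bone marrow against AGM, all lie left of 0, and fetal liver against AGM has none.

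Of the 3 genes that supply deoxynucleotides, Tyms fell in bone marrow against fetal liver, and all 3 fell against AGM. Tyms (chromosome 5, 30058202 to 30073617, GRCm38) encodes thymidylate synthase, which makes the thymidine nucleotide for DNA. Its level was 111 and 99.1 CPM in the bone marrow libraries, 215 and 178 CPM in the fetal liver libraries and 253 CPM in AGM. Every bone marrow plate, at 78.0 to 126 CPM, lay below every fetal liver plate, at 156 to 261 CPM, and below both AGM plates, at 222 and 314 CPM. The log2 fold change was -0.90 ± 0.22 in bone marrow against fetal liver (adjusted p = 0.018) and -1.26 ± 0.25 in bone marrow against AGM (adjusted p = 0.00229). A UMI of Tyms at 20000 UMIs was found in 28.2% of bone marrow cells, 64.3% of fetal liver cells and 81.9% of AGM cells, and without thinning in 46.1%, 80.0% and 98.6%. The call against fetal liver was lost without fetal liver plate 3 (adjusted p = 0.0502), without fetal liver plate 4 (0.189) and without the library of fetal liver plates 1 to 3 (0.277), and it shrank to -0.12 (0.751) when cells with a UMI were counted in place of UMIs. The call against AGM was lost without fetal liver plate 4 (0.107). With cells counted and scaled to all genes, its value was 0.05 (0.908), although a smaller share of bone marrow than of AGM cells held Tyms.

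Rrm1 and Rrm2 encode the large and the small subunit of ribonucleotide reductase, which turns ribonucleotides into deoxynucleotides. Rrm2 (chromosome 12, 24708241 to 24714146) had 24.2 and 44.0 CPM in the bone marrow libraries, 69.7 and 68.8 CPM in the fetal liver libraries and 111 CPM in AGM. Its bone marrow plates reached from 6.89 to 63.5 CPM, below the lowest fetal liver plate at 63.9 CPM and below both AGM plates. Rrm2 fell in bone marrow against AGM (log2 fold change -1.72 ± 0.35, adjusted p = 0.0029), and in bone marrow against fetal liver it missed the threshold (-1.04 ± 0.31, adjusted p = 0.0568). Its transcript was found at 20000 UMIs in 11.1% of bone marrow cells, 36.7% of fetal liver cells and 53.2% of AGM cells, and without thinning in 17.7%, 53.3% and 83.2%. The call against AGM was lost without fetal liver plate 4 (adjusted p = 0.104) and without bone marrow plate 5 (0.0899), and it was -0.98 (0.0964) when cells with a UMI were counted.

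Rrm1 (chromosome 7, 102441695 to 102469771) had 68.8 and 71.5 CPM in the bone marrow libraries, 120 and 105 CPM in the fetal liver libraries and 133 CPM in AGM. It fell in bone marrow against AGM (log2 fold change -0.92 ± 0.28, adjusted p = 0.0428), while against fetal liver the value was -0.69 ± 0.24 (adjusted p = 0.119). Bone marrow plate 2, at 108 CPM, lay within the fetal liver range of 101 to 131 CPM, and the other bone marrow plates lay below it. The call was lost in 13 of 26 other settings, 7 of which left out 1 plate. They were fetal liver plates 2, 3, 4 and 5 (adjusted p = 0.0524, 0.0597, 0.368 and 0.0554) and bone marrow plates 1, 3 and 4 (0.075, 0.105 and 0.152). It was also lost without the library of fetal liver plates 1 to 3 (0.0931) and without that of plates 4 and 5 (0.0937), and it shrank to -0.21 (0.611) when cells with a UMI were counted. In fetal liver against AGM none of the 3 nucleotide genes passed, with log2 fold changes of -0.23 to -0.68.

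Of the 8 genes of chromatin and histones, 1 fell in bone marrow, and 6 had positive values against fetal liver. Nasp (chromosome 4, 116601052 to 116627941) encodes a chaperone that holds histones H3 and H4 before they are laid down on DNA. It had 110 and 80.1 CPM in the bone marrow libraries, 200 and 166 CPM in the fetal liver libraries and 275 CPM in AGM. The plates of all 3 tissues stood apart, at 52.1 to 132 CPM in bone marrow, 151 to 235 CPM in fetal liver and, in AGM, 248 and 291 CPM. Nasp fell in bone marrow against fetal liver (log2 fold change -0.94 ± 0.23, adjusted p = 0.0192) and in bone marrow against AGM (-1.53 ± 0.27, adjusted p = 0.000592). At 20000 UMIs it was found in 24.7% of bone marrow cells, 68.3% of fetal liver cells and 86.0% of AGM cells, and without thinning in 35.9%, 81.1% and 97.9%. The call against fetal liver was lost without fetal liver plate 4 (adjusted p = 0.273), without bone marrow plates 1, 4 or 5 (0.0512, 0.052 and 0.0511) and without the library of fetal liver plates 1 to 3 (0.232), and that against AGM without fetal liver plate 4 (0.0574). With both tissues fitted alone the call against fetal liver was lost (0.0639). When cells with a UMI were counted, Nasp stood at -0.52 against fetal liver (0.0995) and -0.32 against AGM (0.388).

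The other chromatin genes did not pass in any comparison. Chaf1b, a subunit of the CAF-1 complex that places histones behind the fork, had 94.4 and 118 CPM in the bone marrow libraries, 63.1 and 52.2 CPM in the fetal liver libraries and 77.1 CPM in AGM. Its value in bone marrow against fetal liver was 0.88 ± 0.26 (adjusted p = 0.0565), the highest of the 42 genes, and it was found at 20000 UMIs in 34.2% of bone marrow cells and 34.9% of fetal liver cells. Hells, a chromatin remodeller needed for DNA methylation, had 148 and 127 CPM in bone marrow, 174 and 73.2 CPM in fetal liver and 261 CPM in AGM. Its values were -0.93 ± 0.34 in bone marrow against AGM (adjusted p = 0.109) and -1.08 ± 0.34 in fetal liver against AGM (adjusted p = 0.0825). Cdca7, a partner of Hells, stood at 309 and 240 CPM in bone marrow, 281 and 232 CPM in fetal liver and 274 CPM in AGM, with a log2 fold change of 0.00 ± 0.26 in bone marrow against AGM (adjusted p = 1). Slbp, which binds the stem-loop of histone mRNAs, Casp8ap2, which takes part in histone gene expression, Atad2, a chromatin ATPase, and Ubr7 had values between -0.35 and 0.54 in bone marrow against fetal liver.

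Among 3 genes that govern licensing, Gmnn fell in bone marrow against fetal liver. Gmnn (chromosome 13, 24751845 to 24761923) encodes geminin, which blocks a second round of licensing by binding Cdt1. It had 91.9 and 113 CPM in the bone marrow libraries, 187 and 204 CPM in the fetal liver libraries and 131 CPM in AGM. Fetal liver was the highest tissue, with plates at 155 to 252 CPM, above both AGM plates at 126 and 143 CPM and above all bone marrow plates at 64.8 to 140.5 CPM. The log2 fold change was -0.93 ± 0.22 in bone marrow against fetal liver (adjusted p = 0.0164), -0.36 ± 0.26 in bone marrow against AGM (adjusted p = 0.47) and 0.57 ± 0.27 in fetal liver against AGM (adjusted p = 0.323). A UMI of Gmnn at 20000 UMIs was found in 27.9% of bone marrow cells, 65.9% of fetal liver cells and 62.9% of AGM cells, and without thinning in 40.2%, 81.3% and 89.5%. The call was lost without fetal liver plate 3 (adjusted p = 0.0743), fetal liver plate 4 (0.236), bone marrow plate 4 (0.056), the library of fetal liver plates 1 to 3 (0.076) and that of plates 4 and 5 (0.178), and it shrank to -0.33 (0.315) when cells with a UMI were counted. Cdc6, which loads the helicase, and Dtl, which marks Cdt1 for destruction, did not pass, with -0.23 ± 0.42 and -0.33 ± 0.36 in bone marrow against fetal liver.

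Of the 8 genes of repair and the fork checkpoint, Exo1 and Clspn fell. Exo1 (chromosome 1, 175880581 to 175913489) encodes a nuclease of mismatch repair and DNA end resection. It had 8.42 and 10.6 CPM in the bone marrow libraries, 28.5 and 29.8 CPM in the fetal liver libraries and 40.4 CPM in AGM. All bone marrow plates, from 0 to 16.8 CPM, lay below all fetal liver plates, from 20.01 to 33.8 CPM, and the AGM plates, at 33.7 and 44.2 CPM. Exo1 fell in bone marrow against fetal liver (log2 fold change -1.62 ± 0.45, adjusted p = 0.0393) and against AGM (-2.09 ± 0.51, adjusted p = 0.011). It was found in 28 of 423 bone marrow cells, or 6.62% (exact 95% interval 4.44% to 9.43%), in 29.1% of fetal liver cells and in 62.2% of AGM cells, and at 20000 UMIs in 5.12%, 18.7% and 37.0%. One bone marrow cell held 20.4% of its 269 UMIs there.

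The Exo1 call against fetal liver was lost in 14 of 26 other settings. Of these, 8 left out 1 plate, namely AGM plate 1, fetal liver plates 1, 3, 4 and 5, and bone marrow plates 2, 3 and 5, with adjusted p of 0.0514, 0.0508, 0.0818, 0.278, 0.0612, 0.0757, 0.108 and 0.268. It was also lost without the library of fetal liver plates 1 to 3 (0.215) or plates 4 and 5 (0.284). Its call against AGM was lost without fetal liver plate 4 (0.133) and without bone marrow plate 5 (0.116). The fold change stayed negative in all of these.

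Clspn (chromosome 4, 126556935 to 126593903) encodes claspin, which links stalled forks to the checkpoint kinase Chk1. It had 47.3 and 12.1 CPM in the bone marrow libraries, 59.5 and 27.5 CPM in the fetal liver libraries and 109 CPM in AGM. The libraries of bone marrow and of fetal liver overlapped, and the AGM plates, at 127 and 76.1 CPM, lay above all bone marrow plates, at 4.08 to 59.9 CPM. Clspn fell in bone marrow against AGM (log2 fold change -1.85 ± 0.53, adjusted p = 0.0322), with -0.53 ± 0.45 against fetal liver (adjusted p = 0.616). It was found at 20000 UMIs in 7.99% of bone marrow cells, 20.05% of fetal liver cells and 46.9% of AGM cells, and without thinning in 14.4%, 27.8% and 70.6%. Leaving out AGM plate 1 lost the call (adjusted p = 0.172), as did leaving out fetal liver plates 2, 3, 4 and 5 (0.0571, 0.0786, 0.205 and 0.0588), and bone marrow plates 1 and 5 (0.124 and 0.138). When cells with a UMI were counted it was -1.21 (0.0606).

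The other repair genes did not pass. Rad51ap1, which serves homologous recombination, had 23.8 and 39.5 CPM in bone marrow, 52.9 and 52.2 CPM in fetal liver and 66.7 CPM in AGM, and -1.09 ± 0.39 in bone marrow against AGM (adjusted p = 0.0988). Usp1, which removes ubiquitin from PCNA and FANCD2, had 104 and 95.05 CPM in fetal liver and 173 CPM in AGM, and -0.80 ± 0.26 in fetal liver against AGM (adjusted p = 0.0933). Ung, which removes uracil from DNA, the helicases Blm and Brip1, and Tipin, of the fork protection complex, had values of -0.54 to 0.30 in bone marrow against fetal liver. All 8 repair genes had negative values in bone marrow against AGM, down to -2.09 and up to -0.03 for Tipin.

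**Figure D4:**
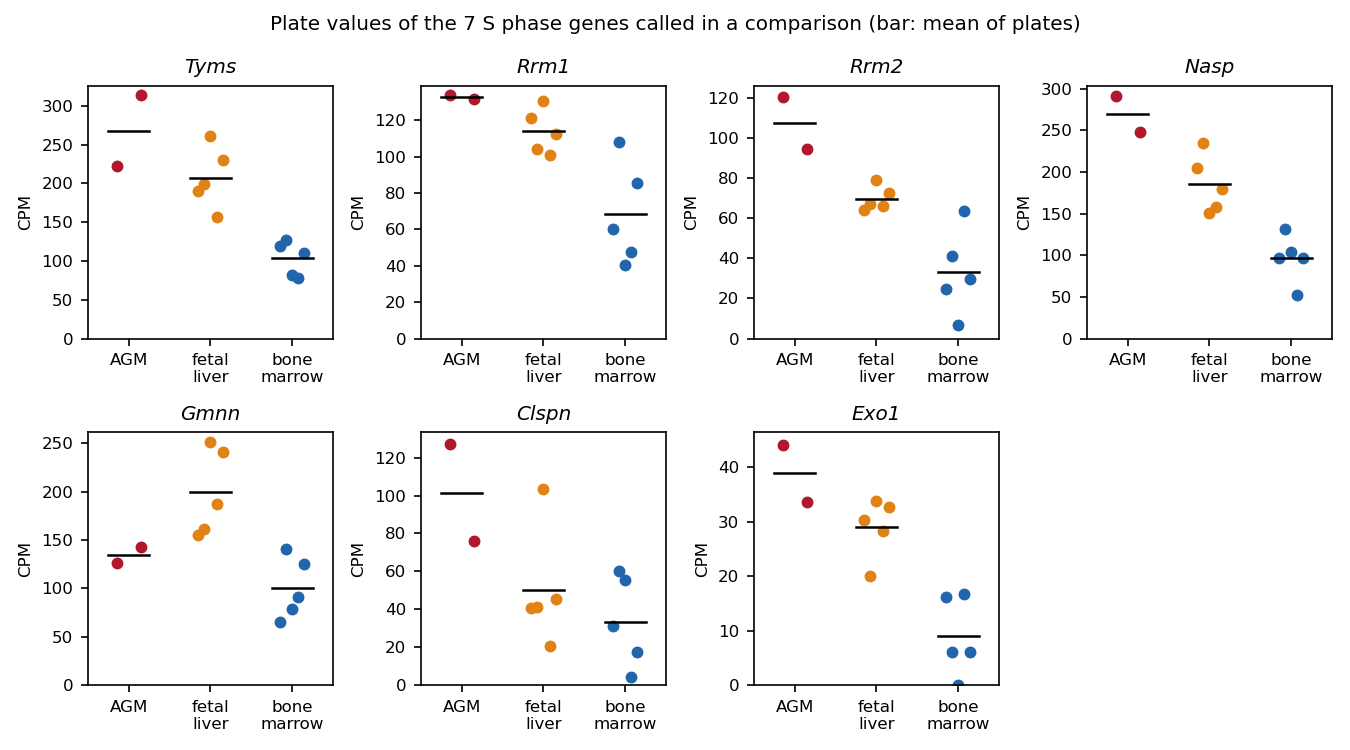
CPM of the 7 S phase genes called in at least 1 comparison, for each plate (point), by tissue, with the mean of the plates as a bar. Bone marrow plates lie below all fetal liver plates for Tyms, Rrm2, Nasp, Gmnn and Exo1, and Gmnn is highest in fetal liver, at 155 to 252 CPM.

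The 9 genes of the replicative helicase had values below 0 in bone marrow against fetal liver without exception, but none passed. Their median log2 fold change was -0.65, between -0.25 for Mcm7 and -0.98 for Gins2. Gins2, a subunit of the GINS complex, came nearest, with 43.1 and 37.3 CPM in the bone marrow libraries, 89.5 and 68.9 CPM in the fetal liver libraries and 74.2 CPM in AGM (-0.98 ± 0.28, adjusted p = 0.0518). Mcm4 had 44.7 and 41.0 CPM in bone marrow, 76.8 and 73.8 CPM in fetal liver and 66.4 CPM in AGM (-0.81 ± 0.28, adjusted p = 0.117). Plates of the 2 tissues did not overlap for Mcm4 and Mcm5. Mcm5 had 91.5 and 88.1 CPM in bone marrow and 147 CPM in AGM (-0.71 ± 0.26, adjusted p = 0.111). In fetal liver against AGM the median over the 9 genes was 0.16, with Gins1 highest at 0.997 ± 0.41 (adjusted p = 0.212).

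The 8 genes of DNA synthesis showed no call. The clamp Pcna stood at 193 and 216 CPM in bone marrow, 231 and 205 CPM in fetal liver and 163 CPM in AGM, with -0.09 ± 0.21 in bone marrow against fetal liver (adjusted p = 0.886). Rfc2, of the clamp loader, stood at 269 and 284 CPM in bone marrow, 242 and 238 CPM in fetal liver and 220 CPM in AGM, with 0.20 ± 0.20 (adjusted p = 0.672). Pola1, the catalytic subunit of the polymerase that starts each strand, had 57.1 and 41.0 CPM in bone marrow, 31.9 and 28.9 CPM in fetal liver and 65.1 CPM in AGM, with -1.10 ± 0.39 in fetal liver against AGM (adjusted p = 0.129). Prim1 (primase), Pold3 (a subunit of polymerase delta), Dscc1 (of an alternative clamp loader), Rpa2 (single-strand binding) and Fen1 (flap removal) had values of -1.08 to -0.10 in bone marrow against fetal liver. Fen1 had at most 5.05 CPM in a library and shares its locus, on the opposite strand, with Tmem258, which had 68943 UMIs.

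Ccne2 (cyclin E2, which drives entry into S phase), E2f8 (a repressor of the E2F family) and Wdr76 did not pass in any comparison, with -0.61 ± 0.46, -0.17 ± 0.65 and -0.32 ± 0.33 in bone marrow against fetal liver. Of the 42 genes, Mcm7, Cdc45, Gins2, Rfc2, Fen1, Ccne2 and E2f8 overlap another counted gene on the opposite strand. How strand was handled in counting is not given, which makes the values of these 7 uncertain. None of the 7 genes called in a comparison overlaps a counted gene.

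Plates differed between bone marrow and fetal liver without overlap for 8 of the 42 genes (Mcm4, Mcm5, Gmnn, Tyms, Rrm2, Nasp, Exo1 and Rad51ap1), all lower in bone marrow, where the plates of 4.49% of all tested genes lay apart and lower and those of 3.54% apart and higher. In bone marrow against AGM 21 genes did not overlap, 19 of them lower and 2 higher, beside 15.1% of all genes apart and lower and 10.9% apart and higher. In fetal liver against AGM 13 did not overlap, 6 lower and 7 higher, beside 14.5% and 12.1% of all genes. With only 2 AGM plates of 1 origin, these counts are descriptions.

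The promoters of 5 of the 7 called genes are shown, those of Exo1 and Gmnn not being in the table used, because E2F factors, which bind such promoters, are the known common regulator of S phase genes. Each is 300 bases, 250 before and 50 after the annotated start, from RefSeq on GRCm38.p6 and written 5′ to 3′ along the gene's strand. Capitals mark an E2F word (TTTCCCGC, TTTGGCGC, TTTCGCGC or TTTGCCGC) or a CCAAT box (CCAAT), read on either strand. The promoters lie at chr4:116627902-116628201 (Nasp, minus strand), chr5:30073576-30073875 (Tyms, minus), chr12:24708004-24708303 (Rrm2, plus), chr4:126556730-126557029 (Clspn, plus) and chr7:102441445-102441744 (Rrm1, plus).
Nasp: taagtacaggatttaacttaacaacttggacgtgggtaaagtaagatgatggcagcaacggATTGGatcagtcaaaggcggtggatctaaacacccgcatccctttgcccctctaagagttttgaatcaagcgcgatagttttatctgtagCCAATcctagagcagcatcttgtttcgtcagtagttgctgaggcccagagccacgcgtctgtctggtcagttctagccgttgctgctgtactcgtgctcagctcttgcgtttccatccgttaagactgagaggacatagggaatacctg
Tyms: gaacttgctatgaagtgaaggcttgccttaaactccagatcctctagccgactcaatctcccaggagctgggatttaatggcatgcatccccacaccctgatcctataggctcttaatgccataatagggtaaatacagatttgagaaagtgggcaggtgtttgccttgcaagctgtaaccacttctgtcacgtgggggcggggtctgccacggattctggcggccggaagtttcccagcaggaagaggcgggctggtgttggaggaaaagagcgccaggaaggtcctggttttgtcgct
Rrm2: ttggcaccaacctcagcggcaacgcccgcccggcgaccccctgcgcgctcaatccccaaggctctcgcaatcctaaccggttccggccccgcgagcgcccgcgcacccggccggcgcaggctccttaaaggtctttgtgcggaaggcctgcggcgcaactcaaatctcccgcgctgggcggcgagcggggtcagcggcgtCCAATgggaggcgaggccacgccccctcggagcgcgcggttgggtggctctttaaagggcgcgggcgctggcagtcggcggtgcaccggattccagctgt
Clspn: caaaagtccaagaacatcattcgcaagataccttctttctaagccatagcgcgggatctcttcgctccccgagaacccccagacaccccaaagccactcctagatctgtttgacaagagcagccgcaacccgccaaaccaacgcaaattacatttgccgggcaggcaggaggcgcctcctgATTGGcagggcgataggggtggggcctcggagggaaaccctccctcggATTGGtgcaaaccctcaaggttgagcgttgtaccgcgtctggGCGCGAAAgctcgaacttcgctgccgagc
Rrm1: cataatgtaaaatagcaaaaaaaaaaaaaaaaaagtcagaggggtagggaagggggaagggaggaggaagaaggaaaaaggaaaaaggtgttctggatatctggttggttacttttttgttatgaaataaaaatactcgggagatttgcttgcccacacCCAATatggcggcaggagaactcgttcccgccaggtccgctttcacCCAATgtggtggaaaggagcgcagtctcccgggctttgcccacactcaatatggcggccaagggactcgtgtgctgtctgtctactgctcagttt
Of these 5, Clspn held an E2F word and Nasp, Rrm2, Clspn and Rrm1 held at least 1 CCAAT box. Tyms held neither. The absence of a word says only that these letters are not in this window.

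Over the 31 S phase genes with a promoter in the table, 13 (41.9%) held an E2F word, against 2.32% of 27025 genes. A CCAAT box, on either strand, was found in 22 of the 31 (71.0%), against 37.9% of all genes. The CHR element (TTTGAA or TTCGAA), known from promoters of G2 and M phase genes, was found in 6 (19.4%), against 19.4% of all genes. Words of the same motif may overlap, and each promoter was counted once. The first E2F word of each of the 13 genes is shown in 30 bases, with the word in capitals, to set the words and their flanks side by side.
Casp8ap2: aagtaccagagTTTGGCGCcaactggaatc
Cdc6: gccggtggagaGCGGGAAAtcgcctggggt
Cdca7: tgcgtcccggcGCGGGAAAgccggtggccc
Clspn: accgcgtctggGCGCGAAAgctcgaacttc
Dtl: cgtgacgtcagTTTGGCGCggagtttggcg
Hells: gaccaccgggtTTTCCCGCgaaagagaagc
Mcm3: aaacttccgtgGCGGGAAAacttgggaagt
Mcm5: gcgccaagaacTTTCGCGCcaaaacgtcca
Mcm6: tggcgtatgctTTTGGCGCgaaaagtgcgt
Mcm7: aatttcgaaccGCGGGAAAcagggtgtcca
Pola1: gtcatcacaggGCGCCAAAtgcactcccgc
Pold3: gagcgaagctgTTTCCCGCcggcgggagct
Ubr7: cggcggccactTTTCCCGCctcctcctggg
On GRCm38.p6 the windows lie at chr4:32615283-32615312 (Casp8ap2), chr11:98908002-98908031 (Cdc6), chr2:72476137-72476166 (Cdca7), chr4:126556990-126557019 (Clspn), chr1:191575534-191575563 (Dtl), chr19:38930917-38930946 (Hells), chr1:20820275-20820304 (Mcm3), chr8:75109345-75109374 (Mcm5), chr1:128359797-128359826 (Mcm6), chr5:138172030-138172059 (Mcm7), chrX:93632275-93632304 (Pola1), chr7:100121467-100121496 (Pold3) and chr12:102757968-102757997 (Ubr7). The first word began between 176 bases before and 21 bases after the annotated start, and in 9 of the 13 genes it began before it. Mcm3, Mcm5, Mcm6 and Mcm7, all subunits of the MCM helicase, held 2 or 3 words each, and the other 9 held 1. Of the 13 genes, Clspn was the only member called in a comparison. A match is a description and not a binding site.

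**Figure D5:**
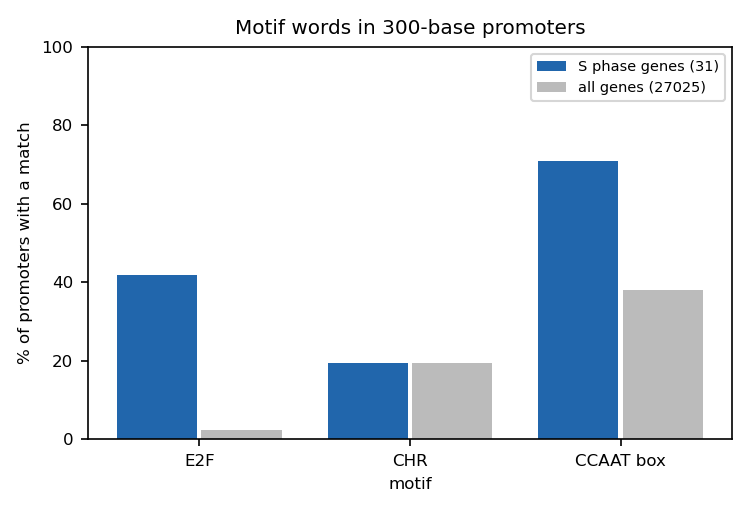
Percentage of promoters of 300 bases that hold an E2F word, a CHR element or a CCAAT box, for 31 S phase genes (blue) and for all 27025 genes (grey). E2F words are in 41.9% of the promoters of S phase genes and 2.32% of all promoters, and the CHR element is equally frequent in both, at 19.4%.

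Other replication genes were counted from lists that hold none of the 42. Of 11 further licensing genes none passed in bone marrow against fetal liver, and Dbf4, the activator of the kinase Cdc7, fell against AGM (34.4 and 15.8 CPM in bone marrow, 77.5 CPM in AGM, log2 fold change -1.61 ± 0.44, adjusted p = 0.0253). That call was lost without AGM plate 1 (0.0972), fetal liver plates 3 and 4 (0.0544 and 0.572) and bone marrow plates 1 and 5 (0.0511 and 0.0694). Of 9 polymerase and primase subunits Pole fell in bone marrow against fetal liver (24.1 and 25.1 CPM against 53.4 and 70.0 CPM, -1.32 ± 0.34, adjusted p = 0.0273). It was lost without fetal liver plates 3 and 4 (0.0593 and 0.375), bone marrow plates 2, 4 and 5 (0.0722, 0.0539 and 0.0891) and either fetal liver library (0.0767 and 0.425). Of 14 genes of clamp loading and the lagging strand, 2 fell against fetal liver and 3 against AGM. Pclaf, a PCNA-binding factor, fell most, with 106 and 133 CPM in bone marrow, 391 and 295 CPM in fetal liver and 434 CPM in AGM (-1.52 ± 0.22 against fetal liver, adjusted p = 0.000164), and this call held in 26 of 26 other settings. Lig1, the ligase that joins the lagging strand, fell against AGM (-1.22 ± 0.26, adjusted p = 0.00335; 0.108 without fetal liver plate 4). Rnaseh2a, which removes RNA from DNA, fell in both comparisons, but its call against AGM held in 9 of 26 other settings and that against fetal liver in 14.

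Of 10 further genes of nucleotide supply, Dctd and Dtymk fell and Rrm2b rose in bone marrow against fetal liver. Rrm2b encodes the ribonucleotide reductase small subunit that p53 induces and that serves outside S phase. It had 37.0 and 16.8 CPM in bone marrow, 4.50 and 4.69 CPM in fetal liver and 10.9 CPM in AGM (2.56 ± 0.60, adjusted p = 0.0164), opposite in sign to Rrm2, its counterpart among the S phase genes. The call of Rrm2b was lost when fetal liver plate 4 (0.294) or bone marrow plate 5 (0.269) was left out, and without either fetal liver library (0.123 and 0.122) or the library of bone marrow plates 1 to 3 (0.0628). Against AGM, Tk1 and Dctd fell. Of 8 chromatin assembly genes Uhrf1, which reads DNA methylation at the fork, fell against AGM (-1.39 ± 0.42, adjusted p = 0.0426). Of 17 E2F and S phase kinase genes, Tfdp2, a partner of E2F, rose in bone marrow against fetal liver (139 and 110 CPM against 58.6 and 74.96 CPM, 0.90 ± 0.25, adjusted p = 0.0412), and Ccna2, cyclin A2, fell against AGM (-1.59 ± 0.47, adjusted p = 0.0366). Over the other settings Uhrf1 kept its call in 13 of 26, Tfdp2 in 10, Ccna2 in 15, Tk1 in 16, Dtymk in 14 and Dctd in 9 against AGM and 16 against fetal liver, and without fetal liver plate 4 their adjusted p ran from 0.241 to 0.579. None of 10 helicase partners and none of 15 genes of the replication stress response passed in either comparison of bone marrow. In fetal liver against AGM no gene of these lists passed.

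Histone and mitotic genes were read beside the 42. Of 56 tested replication-dependent histone genes, 7 fell in bone marrow against fetal liver and 14 against AGM, with none higher. Some, such as Hist1h2bj, Hist1h3e, Hist1h4c and Hist1h4m, had no UMI in bone marrow, so they could only be called lower there. Of all tested genes, 2.06% were called lower and 2.68% higher against fetal liver, and 3.63% lower and 5.29% higher against AGM. These shares also stand beside the counts of G2 and M phase genes below. Hist1h2ag had 2.38 and 4.47 CPM in bone marrow, 38.5 and 17.2 CPM in fetal liver and 51.9 CPM in AGM (-3.08 ± 0.55 against fetal liver, adjusted p = 0.00142; 0.407 without fetal liver plate 4 and 0.107 without bone marrow plate 5). Hist1h3e had no UMI in bone marrow and was at least 75.1-fold lower than in fetal liver, against a floor of 3 UMIs over the bone marrow libraries. Histone genes are near-identical copies and most of their replication-dependent transcripts lack a poly(A) tail, so these values are uncertain. Of 16 G2 and M phase genes, 12 were called lower in bone marrow against fetal liver and 14 against AGM, and Cenpf, a kinetochore protein, fell in fetal liver against AGM (-1.35 ± 0.26, adjusted p = 0.00248; 0.115 without fetal liver plate 4). Ccnb1 (cyclin B1) had 8.02 and 26.5 CPM in bone marrow, 96.8 and 100.2 CPM in fetal liver and 177 CPM in AGM (-2.58 ± 0.38 against fetal liver, adjusted p = 0.000224; 0.0548 without fetal liver plate 4). A cell showed 1.96 of the 16 genes at 20000 UMIs in bone marrow, 7.02 in fetal liver and 10.1 in AGM. The difference between these lists and the 42 genes was not tested.

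Within a plate, cells with much of one S phase gene tended to hold much of the others. Levels were UMIs as a share of the cell's UMIs, over all kept cells and without thinning to equal depth. For each gene the within-plate Spearman correlation with the sum of the other 41 genes was averaged over 12 plates (11 for Exo1). Its median over the 42 genes was 0.376, from 0.179 for Brip1 to 0.531 for Pcna, and 38 genes had a positive value on every plate. The median was 0.446 on AGM plates, 0.428 on fetal liver plates and 0.306 on bone marrow plates. These are descriptions over cells of the same libraries, which share depth and cell size. For 41 of the 42 genes the value exceeded 0.231, the 95th percentile of 6159 genes that were not members.

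Among the genes outside the 42 whose level followed the summed level most closely were Dut at 0.529, Lig1 at 0.528, Tuba1b at 0.517, Ranbp1 at 0.430, Pclaf at 0.420, Tk1 at 0.411, H2afz at 0.405, Fam111a at 0.403 and Ran at 0.401, as means of the within-plate Spearman correlation over 12 plates. The median of the 6159 genes was 0.110. Dut removes dUTP, Tk1 is thymidine kinase and H2afz is a histone variant. Tuba1b is a tubulin, and Ran and Ranbp1 serve nuclear transport and the spindle.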

How the data were processed

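The authors deposited raw UMI counts, 1 table per plate with genes in rows and wells in columns. The submitters' processing notes name mm10, SAMtools, UMI-tools and featureCounts. Their versions, the annotation and how strand was handled are not given in these sources. Only the 42 listed genes, further replication genes, cell type markers and the background of all genes are described. The members and lists were chosen with earlier results of these data known.

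Wells with fewer than 1000 genes, fewer than 3000 UMIs or 20% or more mitochondrial UMIs were left out. Doublets were not called, since each well received 1 sorted cell, and cells were not clustered. Wells of all plates carry the same 96 well barcodes by design. UMI counts of kept cells were summed over plates with 1 origin code, since nothing says that such plates are separate animals. The sums were tested in edgeR 4.0.16 (R 4.3.3) with the quasi-likelihood test, TMM scaling, filterByExpr and 1 model over 5 libraries. P-values were adjusted by Benjamini-Hochberg over 15472 genes at 0.05. They rest on the spread between libraries, with 2 residual degrees of freedom, and mostly on spread borrowed from all genes (18.0 prior degrees of freedom). The 2 fetal liver origin codes share a stem, and whether they are independent is not stated. An error is the log2 fold change divided by the square root of F and only approximates a standard error. CPM use TMM-scaled library sizes.

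Detection at 20000 UMIs is the expected value under drawing without replacement. Positive values gathered at 1 UMI and at 10 UMIs or more, so UMIs were not taken as plain molecule counts, and intervals and floors cover counting error only. The genes named in full are those called in a comparison, then the 3 with the smallest p in each, up to 4 called genes per list, and the 10 genes most like the summed level among those found in at least 20% of cells, of which 1 is not reported here. A fold against 0 UMIs uses a floor of 3. Alternatives were DESeq2 1.42.0, limma 3.58.1 on plates, other scaling, filters, thinning, and leaving out each plate or library.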

Additional observations from a re-analysis of the deposited data

Results flagged for a closer look

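In groups of 5 plates, 7 of 90 values were set far apart from the other 4 plates, and chance alone sets about 1 in 20 groups apart in this way. The summed level of the 42 genes was 5129 per 1000000 UMIs on fetal liver plate 3, with the other fetal liver plates at 3733 to 3983. On the same plate Ubr7 had 58.5 CPM (others 19.6 to 28.5), Ccne2 had 61.0 CPM (others 9.28 to 21.2) and Prim1 had 156 CPM (others 105 to 118). Gins1 had 210.6 CPM on fetal liver plate 5, with the others at 46.4 to 70.2, and this plate had the fewest UMIs per detected gene. Pcna was low on fetal liver plate 4, at 192 CPM with the others at 224 to 232. Pola1 was low on bone marrow plate 4, at 17.2 CPM with the others at 54.7 to 58.5. None of these 6 genes was called in a comparison.

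The 132 wells left out of all comparisons held 107785 UMIs, of which 281 were UMIs of the 42 genes, found in 53 wells. That is 2607 per 1000000 UMIs.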

How the results depend on the processing

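Of 42 S phase genes, 4 were called in bone marrow against fetal liver, 6 in bone marrow against AGM and 0 in fetal liver against AGM, and of all genes 732, 1380 and 748. In the same order, without the low-count filter 7, 7 and 2 S phase genes were called. With both tissues fitted alone these were 2, 4 and 8, and all genes 331, 974 and 2218. With limma on plates and the origin as a random block they were 14, 14 and 8, and 2127, 3610 and 2170, where 41.1%, 41.0% and 46.2% of calls were higher, against 56.6%, 59.3% and 60.4% in edgeR. Counting cells with at least 1 UMI gave 3, 5 and 0 S phase genes, of which 2 and 3 were higher in bone marrow, and 348 genes in fetal liver against AGM, with 73.3% of calls higher in bone marrow against fetal liver; counting cells with at least 3 UMIs, chosen after seeing the data, gave 10, 11 and 4, and 1403, 2501 and 2143. Cells scaled to 20000 UMIs gave 413 genes in bone marrow against fetal liver. Leaving out a plate or library in turn gave 0 to 11, 0 to 10 and 0 to 7 S phase genes, and 117 to 1958, 329 to 2748 and 181 to 2186 genes. Without the library of bone marrow plates 1 to 3, 46.3% of calls were higher in bone marrow against fetal liver. The direction turned when cells with at least 1 UMI were counted for Tyms (0.049), Rnaseh2a (0.10) and Tk1 (0.066) against AGM and for Dtymk (0.37) against fetal liver, with adjusted p of 0.908, 0.781, 0.885 and 0.0785. Cell counts were scaled to library totals as UMIs were, so calls and values from them are relative to the detection of other genes. The share of cells with a Tyms UMI was itself lower in bone marrow than in AGM (46.1% against 98.6%). The cause of the turned values was not tested. Of 32 calls of list genes named by the rule, 24 were lost without fetal liver plate 4.

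The mean over cells, also chosen after seeing the data, gave a summed level of 4750 (AGM), 3399 (fetal liver) and 2504 per 1000000 UMIs (bone marrow). At 10000 UMIs 17.5, 13.6 and 7.30 S phase genes were detected per cell, and at least 3 UMIs without thinning gave 22.9, 13.4 and 6.61. The order of tissues was the same in each. No paired analysis was possible because plate numbers only name plates within an origin code and plates of a code were summed. Libraries held 6086932 to 24699454 UMIs, and calls at equal library depth were not tested.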

Other observations

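Some S phase genes rested on few cells in bone marrow. A single cell held 40.9% of the 181 UMIs of Brip1 there, 35.9% of the 323 UMIs of E2f8, 25.4% of the 71 UMIs of Fen1, 25.2% of the 416 UMIs of Ccne2 and 24.2% of the 670 UMIs of Dscc1. In AGM the largest such share was 26.0% of the 177 UMIs of E2f8. Of the positive values of the 42 genes, 37.2% ± 5.21 were a single UMI in bone marrow (SD, n = 5 plates), 28.6% ± 1.59 in fetal liver (n = 5) and 17.5% ± 0.903 in AGM (n = 2). For all genes these shares were 33.7%, 31.6% and 25.3%.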
